A study of Gallus gallus with 12 samples.

Results

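The chorioallantoic membrane (CAM) of the chick at day 10 of incubation (E10) was set against the CAM at day 5 (E5), with 3 CAMs at each stage, which is 6 of the 12 arrays of the series. The arrays were taken by their stage labels, and every probe set entered the comparison. The pair of stages was chosen with earlier results of these data known, including that its replicates lay close together. Each CAM came from 1 embryo that developed in the egg with no treatment, and its total RNA was hybridised to 1 Affymetrix chicken GeneChip. The other 6 arrays hold CAMs of day 7 (E7) and day 14 (E14), 3 of each. No strain or sex of the embryos was given in the sources used here, and the labels set E10 and E5 apart by day of incubation alone.

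The CAM forms when the allantois, an outgrowth of the hindgut with an inner endodermal epithelium, fuses with the chorion, whose ectodermal epithelium faces the shell. At E5 the allantois is still a small vesicle, and the fusion proceeds over the days that follow. The mesoderm between them carries arteries, veins, lymphatics and a capillary plexus that moves up to the chorionic epithelium. The membrane serves as the lung of the embryo, takes calcium from the shell, and recovers ions and water from the allantoic fluid. It is widely used as an assay of blood vessel growth. The paper uses the name CAM for the allantoic vesicle of E5 as well, so the parts sampled may differ between the stages. Because whole membranes were measured, a higher or lower level can come from more or fewer cells of a type. It can also come from more or less RNA per cell, and these cannot be told apart.

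Values are array signals that the authors scaled within each array, and the trimmed mean signal was 100.019 to 100.025 on the 6 arrays. Each change is the log2 fold change, E10 minus E5, followed by ± its standard error (SE, n = 3 CAMs a stage). The p of limma comes next, adjusted by Benjamini-Hochberg over all 38439 probe sets. Both the SE and the p use a variance that limma draws toward that of probe sets of like signal. Calls required a change of over 2-fold with an adjusted p below 0.05, and "rose" and "fell" are kept for called probe sets, with the size in log2 units. Signals under about 20 are low on this scale, and 40.9% to 45.3% of the probe sets on each array lay there. Over the 18000 brightest probe sets, Spearman's rho was 0.932 to 0.949 among the E10 arrays, 0.941 to 0.951 among the E5 arrays and 0.798 to 0.859 between the stages. HINTW, a gene of the W chromosome that female birds alone carry, read 3829.8, 5386 and 4643 in the E10 CAMs, against 9.99, 2.73 and 3679.6 in the E5 CAMs. E5 replicates 1 and 2 thus stand apart from the other 4 arrays, so that sex and stage are partly mixed in this comparison. Each gene list counted below is therefore also given, as a count or a median change, for the 3 E10 arrays against E5 replicate 3 alone. Some smaller sets, such as the hedgehog genes and the vitamin D and steroid receptor genes, are given without such a count. The choice of this comparison was made after the values were seen. The ratio of the 3′ to the 5′ actin control was 1.51 to 1.66 at E10 and 1.26 to 1.503 at E5, and its part in the results was not tested.

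Of 38439 probe sets, 1952 rose (5.08%) and 1171 fell (3.05%) at E10. Of the rises 249 were over 8-fold, and of the falls 120. With 1 probe set per gene, the brightest, 983 of 13009 genes rose (7.56%) and 555 fell (4.27%), and the median log2 fold change over these genes was 0.00. These gene-level shares are the background for the counts below that come from all 6 arrays with the signals unchanged. No such share was computed for the counts against E5 replicate 3 alone, with a floor or with an array left out. With signals under 20 set to 20, 917 of the 38439 probe sets rose and 561 fell. This floor also changes the p of probe sets with no signal under 20. The reason is that the fit shares variances and the adjustment runs over all probe sets. At an adjusted p under 0.05 and any fold, 4620 probe sets passed, and 11267 (29.3%) had all arrays of one stage above all of the other. Of the 3123 called probe sets 3101 had no such overlap, so a lack of overlap adds little to a call. Of the called genes given below with their signals, TFRC alone has overlapping stages. The 3 E10 arrays against E5 replicate 3 alone gave 810 rises and 265 falls, and log2 HINTW as a covariate on the 6 arrays gave 667 and 337.

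**Figure D1:**
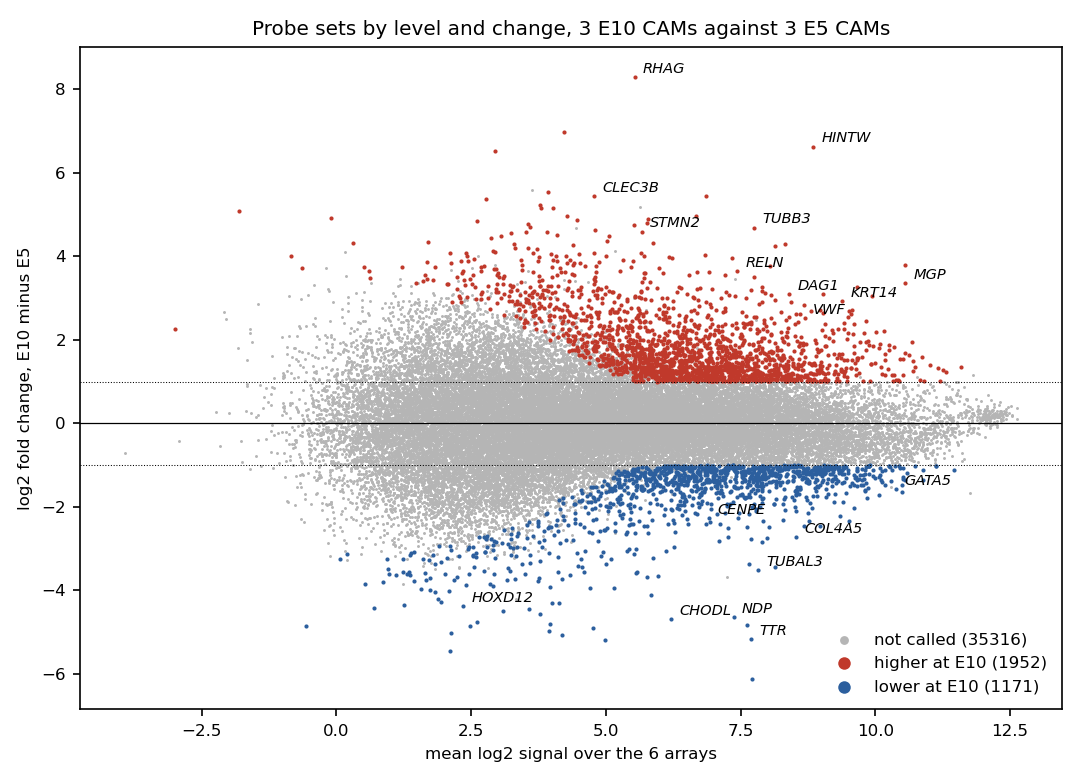
Each point is 1 of 38439 probe sets, by its mean log2 signal over the 6 arrays (x axis) and its log2 fold change, E10 minus E5 (y axis); dotted lines mark a 2-fold change. Red points are the 1952 called higher at E10, blue the 1171 called lower, and red points outnumber blue ones at over 2-fold changes.

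The gene with the largest rise was RHAG, the Rh-associated glycoprotein that carries ammonia and carbon dioxide across the red cell membrane. It read 869, 836 and 752 in the E10 CAMs, against 1.497, 1.57 and 7.62 in the E5 CAMs (8.29 ± 0.53 log2, adjusted p = 5.2e-06). The E5 signals were at the bottom of the scale, and with all signals under 20 set to 20 the log2 fold change was 5.35. CLEC3B, the plasminogen-binding protein tetranectin, read 253, 87.6 and 268 at E10, against 4.48, 1.54 and 10.4 at E5 (5.45 ± 0.67 log2, adjusted p = 0.000375), and 3.18 log2 with that floor. The SH3-domain binding protein gene ABI3BP read 106, 232 and 45.6 at E10, against 0.586, 2.03 and 9.302 at E5 (5.54 ± 0.95 log2, adjusted p = 0.00276), and with the floor of 20 its call was lost (log2 fold change 2.38, adjusted p = 0.121). Both genes had no E10 array at or below an E5 array, but their E10 arrays spread over 3-fold or more.

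TUBB3, a beta-tubulin best known from neurons, read 1222, 851 and 1246 in the E10 CAMs, against 40.5, 40.9 and 45.99 in the E5 CAMs (4.69 ± 0.20 log2, adjusted p = 7.0e-07). Its probe set is of a kind that can bind several transcripts. STMN2, a microtubule regulator of growing neurites, read 378, 157 and 260.4 at E10, against 8.59, 9.15 and 14.1 at E5 (4.59 ± 0.37 log2, adjusted p = 2.6e-05). The E5 arrays were close together for both genes and far below every E10 array. SLC36A1, an amino acid carrier of lysosomes and epithelia, had 1 of its 7 probe sets called, which read 274, 214 and 234 at E10, against 2.58, 9.38 and 29.2 at E5 (4.75 ± 0.65 log2, adjusted p = 0.000713). TMOD4, a tropomodulin that caps actin filaments, read 249, 334 and 219 at E10, against 14.4, 24.7 and 6.42 at E5 (4.32 ± 0.43 log2, adjusted p = 9.3e-05). The short-chain collagen gene COL8A1 read 179, 144 and 344 at E10, against 7.29, 22.7 and 10.97 at E5 (4.08 ± 0.45 log2, adjusted p = 0.000173), and 2 of its 3 probe sets were called. ABI3, an adaptor of actin regulation, had log2 fold change 4.36 ± 0.45 and 1 of 3 probe sets called, and GBP, a guanylate-binding protein gene, 4.03 ± 0.64. OVOA rose by 4.49 ± 0.99, with 351, 34.2 and 323 in the E10 CAMs, against 22.7, 1.48 and 10.1 in the E5 CAMs. With signals under 20 set to 20, the log2 fold change was 3.40 for SLC36A1, 3.64 for STMN2, 3.62 for TMOD4, 3.31 for COL8A1, 2.87 for ABI3 and 2.91 for OVOA. Besides ABI3BP, the calls of OVOA, GBP and HINTW were lost with this floor (limma adjusted p = 0.207, 0.0954 and 0.312). Every GBP signal was over 20, so its log2 fold change stayed 4.03 and its p alone moved. Of these 12 rises, HINTW among them, 10 stayed called when each array was left out in turn, 9 against E5 replicate 3 alone and 8 with the floor of 20. The exceptions to leaving arrays out were OVOA without E10 replicate 1 or 3 (adjusted p 0.0646 to 0.0668) and HINTW without E10 replicate 1, 2 or 3 or E5 replicate 1 or 2 (adjusted p 0.09 to 0.147).

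**Figure D2:**
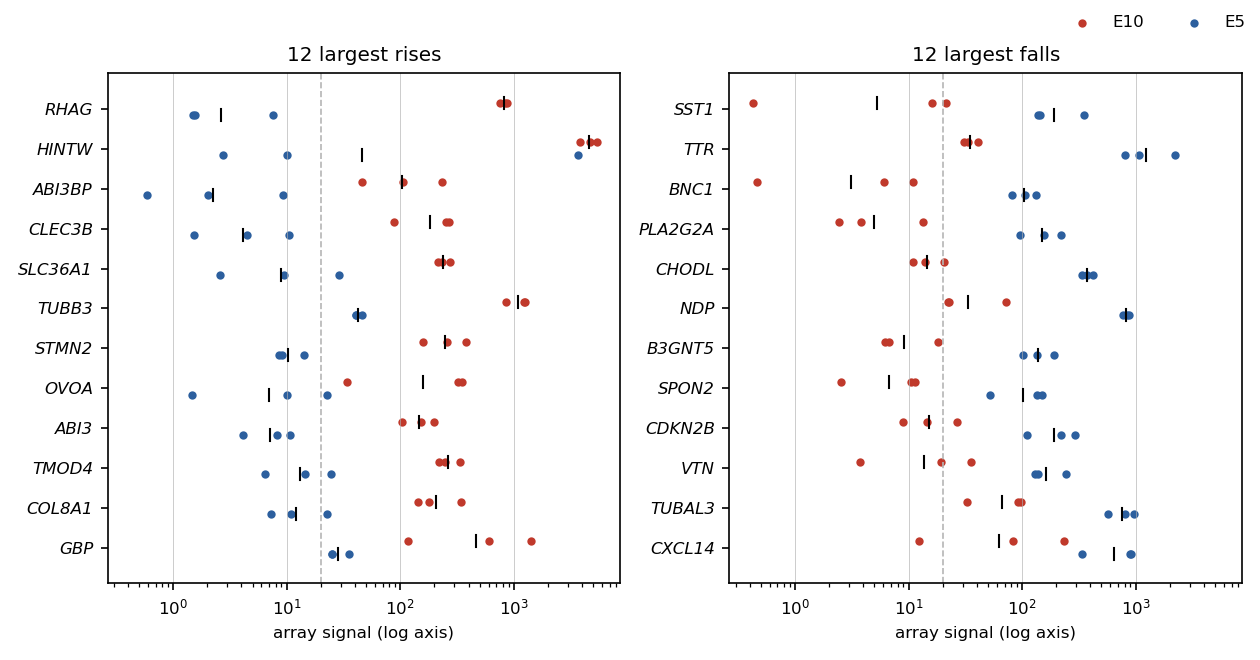
Signals of the 12 largest rises (left) and falls (right) on a log axis, with red points for the 3 E10 arrays above blue points for the 3 E5 arrays of each gene; black bars are geometric means and the dashed line marks a signal of 20. For 5 of the 12 rises every E5 array lay under 20, for 4 of the 12 falls every E10 array did, and for HINTW E5 replicate 3 lies beside the E10 arrays.

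Among the falls, TTR, the plasma carrier of thyroxine and retinol-binding protein and a product of yolk sac endoderm and liver, stood out by its level at E5. It read 30.8, 33.2 and 41.1 in the E10 CAMs, against 2229, 806 and 1069 in the E5 CAMs (-5.16 ± 0.31 log2, adjusted p = 3.6e-06). Of its 2 probe sets 1 was called. SST1, a somatostatin gene, read 0.425, 16.1 and 21.4 at E10, against 145, 137 and 350.2 at E5 (-5.18 ± 1.13 log2, adjusted p = 0.0107), and 2 of its 3 probe sets were called. NDP, the secreted Norrie disease protein that binds a Frizzled receptor, read 22.3, 22.9 and 71.9 at E10, against 779, 865 and 835 at E5 (-4.63 ± 0.37 log2, adjusted p = 2.3e-05). In each of these genes the E5 arrays lay at least several-fold above the highest E10 array.

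CHODL, a membrane C-type lectin, read 13.8, 10.9 and 20.6 in the E10 CAMs, against 418, 372 and 335 in the E5 CAMs (-4.68 ± 0.28 log2, adjusted p = 3.6e-06), with both of its probe sets called. BNC1, a zinc finger protein of basal keratinocytes and mesothelium, read 6.14, 10.95 and 0.463 at E10, against 132, 82.1 and 106 at E5 (-5.06 ± 0.96 log2, adjusted p = 0.00486), with all E10 signals under 20. The alpha-tubulin-like gene TUBAL3 read 32.9, 92.7 and 98.04 at E10, against 967, 567 and 808 at E5 (-3.51 ± 0.36 log2, adjusted p = 0.000124). CDKN2B, an inhibitor of the cyclin D kinases, read 8.93, 26.6 and 14.6 at E10, against 111, 290.4 and 220.2 at E5 (-3.67 ± 0.44 log2, adjusted p = 0.000311). All E10 values of CDKN2B were under 30, whereas all its E5 values were over 100. PLA2G2A, a secreted phospholipase, fell by 4.90 ± 0.61, the glycolipid-building enzyme gene B3GNT5 by 3.93 ± 0.46 in 1 of its 4 probe sets, and SPON2, a secreted matrix protein of the spondin family, by 3.93 ± 0.63. VTN, which encodes vitronectin, fell by 3.59 ± 0.65, and the chemokine gene CXCL14 by 3.38 ± 0.78. With the floor of 20 the log2 fold change was -2.39 for BNC1, -3.22 for SST1, -2.89 for PLA2G2A, -2.80 for B3GNT5, -2.35 for SPON2 and -2.76 for VTN. The calls of SPON2 and CXCL14 were lost with this floor (limma adjusted p = 0.0649 and 0.183). Of these 12 falls, 11 stayed called with each array left out, 5 against E5 replicate 3 alone and 10 with the floor of 20. The exception was CXCL14 without E5 replicate 2 (adjusted p 0.0702).

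In all 12 rises and all 12 falls the E7 mean lay between the means of E10 and E5. The E14 mean lay above the E10 mean in 8 of the 12 genes that rose and in 8 of the 12 that fell. These genes were picked for large differences between E10 and E5, which favours means in between at other stages. The same shares over all genes were not computed, so the counts are descriptions only. ABI3BP had its lowest mean at E14, with mean signals of 3.97 ± 4.67 at E5, 12.9 ± 3.53 at E7, 128 ± 95.1 at E10 and 1.33 ± 0.875 at E14 (SD, n = 3 CAMs each). CLEC3B had its highest mean there, with 5.46 ± 4.503 at E5, 25.4 ± 14.5 at E7, 203 ± 100.2 at E10 and 853 ± 104 at E14. E7 and E14 are given as levels only, with no test.

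Red blood cells fill the vessels of the CAM, and primitive red cells with embryonic globins are replaced by definitive ones over these days. Of 24 erythroid genes, 15 had a probe set with 1 symbol, and of these 5 rose, 2 fell and 8 were not called (median log2 fold change 0.42). Besides RHAG, the genes that rose encode proteins of the membrane and its skeleton. SPTB, erythroid beta-spectrin, read 473, 228 and 513 in the E10 CAMs, against 47.8, 83.9 and 45.6 in the E5 CAMs (2.75 ± 0.32 log2, adjusted p = 0.00028), and 3 of its 5 probe sets were called. ANK1, the ankyrin that ties spectrin to the membrane, read 638, 522 and 725 at E10, against 162, 209 and 122 at E5 (1.96 ± 0.22 log2, adjusted p = 0.000205), with 4 of 7 probe sets called. SLC4A1, the band 3 chloride-bicarbonate exchanger, read 1419, 1098 and 1656 at E10, against 369.8, 741 and 393 at E5 (1.53 ± 0.26 log2, adjusted p = 0.0028). TFRC, the transferrin receptor, rose by 1.16 ± 0.30, with 2222, 1984 and 1195 at E10, against 672, 1238 and 568 at E5.

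Of the 4 globins measured 1 was called. HBA1 read 3999, 5059 and 4927 in the E10 CAMs, against 3305, 6052 and 3638 in the E5 CAMs (0.15 ± 0.26 log2, adjusted p = 0.784), and HBAD had log2 fold change 0.31 ± 0.27 (adjusted p = 0.548). The embryonic beta-like globin HBE read 3554, 4179 and 4566 at E10, against 3092, 5444 and 3241 at E5 (0.10 ± 0.25 log2, adjusted p = 0.852). The stages overlapped in these 3 genes. HBZ, the embryonic alpha-like globin, fell, with 1482, 1744 and 2758 at E10, against 3421, 6222 and 3383 at E5 (-1.11 ± 0.29 log2, adjusted p = 0.0262). FECH, the last enzyme of haem synthesis, read 155, 136 and 290.2 at E10, against 468, 475 and 361 at E5 (-1.24 ± 0.26 log2, adjusted p = 0.00917). GATA1 had no probe set with 1 symbol, so the defining markers are HBA1 and HBAD. The summed signal of the 15 genes was 22219.9 to 26661 at E10 and 17342 to 30378 at E5, which overlap. Calls did not hold for TFRC without E10 replicate 1 or 2 or E5 replicate 1 or 3 (adjusted p 0.0798 to 0.11) and HBZ without E10 replicate 1 or 2 or E5 replicate 2 (adjusted p 0.0827 to 0.132), which left 1 fall in the list. With E5 replicate 3 as the sole E5 array, 4 genes rose and 0 fell, and 3 rose with the floor of 20.

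**Figure D3:**
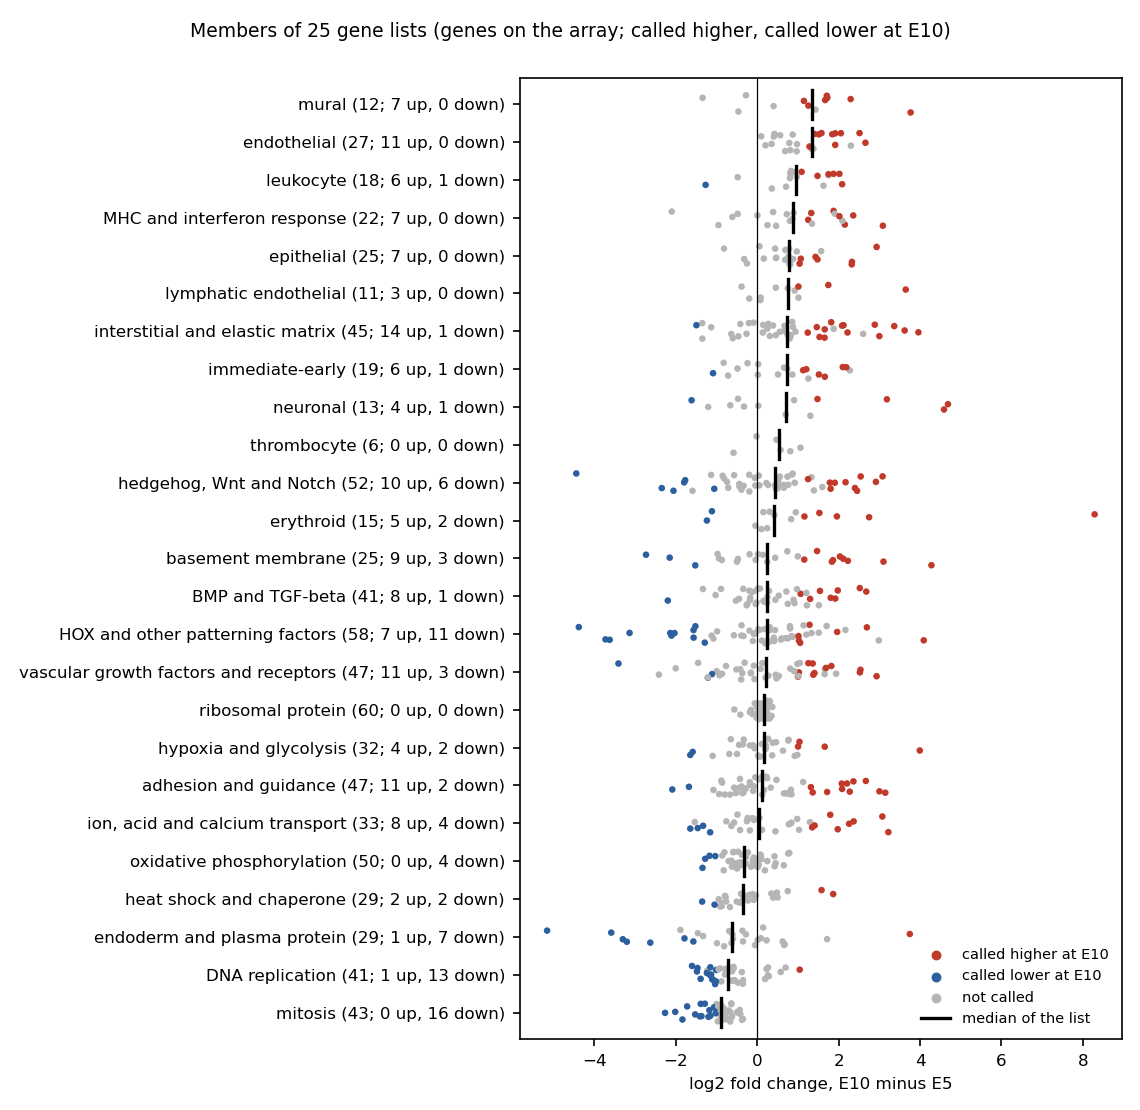
Each point is the brightest probe set of 1 gene, by its log2 fold change, E10 minus E5, in 25 gene lists ordered by their median (black bar); red points were called higher at E10, blue lower and grey not called. Endothelial and mural genes have the highest medians (1.34 each) and mitosis genes the lowest (-0.89), and the 60 ribosomal protein genes stay near 0. Against E5 replicate 3 alone, which is not drawn, the endothelial median was 0.84, the mural 1.41 and the leukocyte 1.00.

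Endothelial genes lay on the side of E10 in all of the 27 genes measured, from 0.10 to 2.66 on the log2 scale (median 1.34). Of these 11 rose (40.7%) and none fell, and 14 had an adjusted p under 0.05 at any fold. Their summed signal was 9613 to 14797 at E10 and 4571 to 6285 at E5, with no overlap. Against E5 replicate 3 alone the median was 0.84, and not all of the genes lay on the side of E10. ERG and MMRN2, for example, had log2 fold changes of -0.03 and -0.11 there. VWF, the von Willebrand factor stored by endothelial cells, read 902, 902 and 1190.4 in the E10 CAMs, against 165, 137 and 230.1 in the E5 CAMs (2.51 ± 0.21 log2, adjusted p = 3.7e-05), and 1 of its 3 probe sets was called. TMEM100, a membrane protein downstream of ALK1 signalling in arterial endothelium, read 375, 382 and 693 at E10, against 57.5, 76.6 and 89.6 at E5 (2.66 ± 0.26 log2, adjusted p = 9.5e-05). ENG, the TGF-beta co-receptor endoglin, read 162, 144 and 261 at E10, against 36.96, 62.8 and 48.8 at E5 (1.92 ± 0.29 log2, adjusted p = 0.00123). The junction molecule JAM2 rose by 2.06 ± 0.39 in 1 of its 3 probe sets.

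The 3 defining markers had smaller log2 fold changes. KDR, the main VEGF receptor, read 117, 49.1 and 145 in the E10 CAMs, against 37.8, 32.4 and 36.5 in the E5 CAMs (1.41 ± 0.38 log2, adjusted p = 0.0303), and 1 of its 5 probe sets was called. CDH5, vascular endothelial cadherin, read 1645, 1585 and 2086 at E10, against 894, 935 and 1262 at E5 (0.79 ± 0.20 log2, adjusted p = 0.0224), which is under 2-fold. PECAM1 read 468, 731 and 1034 at E10, against 530, 505 and 633 at E5 (0.35 ± 0.25 log2, adjusted p = 0.445), but its 2 other probe sets were both called higher. The stages overlapped in this probe set of PECAM1 and not in those of KDR and CDH5. The call was lost for KDR without E10 replicate 1 or 3 or E5 replicate 1, 2 or 3 (adjusted p 0.0638 to 0.134). In the comparison with E5 replicate 3 alone, 6 of the 27 genes rose.

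Among 11 genes of lymphatic endothelium 3 rose and none fell (median 0.75). RELN, the secreted glycoprotein reelin, which lymphatic vessels and some neurons make, read 603, 443 and 857 in the E10 CAMs, against 44.8, 47.3 and 54.8 in the E5 CAMs (3.65 ± 0.24 log2, adjusted p = 6.7e-06), with 1 of 2 probe sets called. FLT4, the receptor of VEGFC, read 490.3, 536 and 667 at E10, against 147, 143 and 219 at E5 (1.75 ± 0.21 log2, adjusted p = 0.000311), with 2 of 5 probe sets called. Every E10 array was at least 2-fold above every E5 array in both genes. PROX1, the transcription factor that sets lymphatic identity, read 109, 95.2 and 161 at E10, against 74.2, 28.01 and 98.3 at E5 (adjusted p = 0.139), and LYVE1, a hyaluronan receptor, 305, 512 and 292 at E10, against 189, 159 and 225 at E5 (log2 fold change 0.92 ± 0.24, adjusted p = 0.0245). VEGFC and VEGFD, the ligands, had log2 fold changes of 0.08 ± 0.27 and -0.20 ± 0.31. NRP2, a co-receptor, rose by 1.01 ± 0.26 in 1 of 3 probe sets, a call that was lost without E10 replicate 1 or 2 or E5 replicate 1 or 2 (adjusted p 0.0517 to 0.0902). When E5 replicate 3 stood for E5, 2 of the 11 genes rose.

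Mural cells, the smooth muscle cells and pericytes around vessels, were represented by 12 genes, of which 7 rose (58.3%) and none fell. ACTG2, a smooth muscle actin, read 561, 1459 and 1144 in the E10 CAMs, against 86.7, 44.5 and 96.1 in the E5 CAMs (3.77 ± 0.35 log2, adjusted p = 6.4e-05). DES, the intermediate filament desmin, read 69.4, 97.8 and 143 at E10, against 16.3, 25.97 and 19.4 at E5 (2.30 ± 0.36 log2, adjusted p = 0.00162), with 1 of 2 probe sets called. TAGLN, which encodes the actin-binding protein SM22, read 1087, 1324 and 1181 at E10, against 253, 486 and 429 at E5 (1.67 ± 0.23 log2, adjusted p = 0.000785). No E10 array of these 3 genes lay below an E5 array. KCNJ8, a potassium channel of pericytes, rose by 1.72 ± 0.31, and CSPG4, the pericyte proteoglycan NG2, by 1.71 ± 0.31 with 2 of 4 probe sets called. Of the defining markers, PDGFRB, the receptor that recruits mural cells, read 340.1, 222 and 503 at E10, against 147, 143 and 133 at E5 (1.26 ± 0.26 log2, adjusted p = 0.00764), with 1 of 2 probe sets called. MYH11, smooth muscle myosin, read 332, 632 and 561 at E10, against 431, 83.7 and 166 at E5, with overlap (adjusted p = 0.0627). ACTA2 was dim at both stages, with 43.7, 29.7 and 32.97 at E10 and 18.7, 26.3 and 37.6 at E5. MYLK, the myosin light chain kinase, rose by 1.15 ± 0.25 in 1 of 4 probe sets. Calls ended for PDGFRB without E10 replicate 3 (log2 fold change 0.97) and MYLK without E5 replicate 2 (log2 fold change 0.90). With the floor of 20 the list had 3 rises, and 4 rises against E5 replicate 3 alone.

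Of 47 growth factors and receptors of vessels, 11 rose and 3 fell. FGFBP1, a carrier that frees fibroblast growth factors from the matrix, read 747, 1068 and 666 in the E10 CAMs, against 127, 117 and 183 in the E5 CAMs (2.54 ± 0.23 log2, adjusted p = 5.1e-05). IGFBP7 and IGFBP2, secreted binding proteins of insulin-like growth factors, rose by 1.69 ± 0.19 and 1.36 ± 0.21. IGFBP7 was bright, with 2858, 2460 and 2722 at E10, against 706, 789.5 and 1026 at E5. FGFR1, a receptor of fibroblast growth factors, fell, with 52.3, 66.1 and 97.9 at E10, against 175, 137 and 177 at E5 (-1.21 ± 0.26 log2, adjusted p = 0.00973). FGF10, a ligand made by mesenchyme that acts on epithelium, read 4.01, 25.9 and 3.06 at E10, against 102, 54.4 and 68.2 at E5 (-3.41 ± 0.73 log2, adjusted p = 0.00948). VEGFA itself read 79.9, 87.6 and 102 at E10, against 32.8, 62.5 and 45.04 at E5 (0.99 ± 0.30 log2, adjusted p = 0.0497), and was not called at a change just under 2-fold.

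Several calls depended on 1 array. EDN1, the constrictor peptide endothelin, read 41.05, 87.2 and 91.3 in the E10 CAMs, against 23.1, 3.14 and 23.9 in the E5 CAMs (2.52 ± 0.71 log2, adjusted p = 0.0369), and the receptor EDNRA fell by 1.11 ± 0.20. ACE, the angiotensin-converting enzyme of endothelium, rose by 1.82 ± 0.41, PDGFB, the ligand of PDGFRB, by 1.38 ± 0.31, and IGF2 by 2.93 ± 0.79 from signals under 40 with 1 of 3 probe sets called. Calls were lost for EDN1 without E10 replicate 1, 2 or 3 (adjusted p 0.0539 to 0.135), EDNRA without E10 replicate 1 (log2 fold change -0.92), ACE without E10 replicate 3 (adjusted p 0.0662), PDGFB without E10 replicate 3 or E5 replicate 2 (adjusted p 0.0553, log2 fold change 0.97), IGF2 without E10 replicate 1, 2 or 3 or E5 replicate 2 (adjusted p 0.0534 to 0.125) and FGF10 without E5 replicate 1 (adjusted p 0.0561). Set to the floor of 20, the log2 fold changes of FGF10, EDN1 and IGF2 were -1.73, 1.63 and 0.40, none called. The list had 7 rises without E10 replicate 1 or 3, and 5 falls without E5 replicate 2. Against E5 replicate 3 alone, there were 4 rises and 0 falls, and there were 4 rises and 1 fall with the floor of 20.

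Epithelial genes rose in 7 of 25 cases and fell in none (median 0.79). KRT14, a keratin of basal layers of stratified epithelium, read 2506, 2222 and 1131 in the E10 CAMs, against 153, 336 and 275 in the E5 CAMs (2.93 ± 0.32 log2, adjusted p = 0.000182). ITGB4, the integrin of hemidesmosomes, read 279, 229 and 432 at E10, against 49.3, 89.04 and 49.7 at E5 (2.33 ± 0.29 log2, adjusted p = 0.000406), with 3 of 4 probe sets called. OCLN, the tight junction protein occludin, read 160.2, 160.3 and 229.7 at E10, against 24.3, 65.03 and 29.9 at E5 (2.32 ± 0.35 log2, adjusted p = 0.00122). E10 replicate 3 was the lowest E10 array for KRT14 and the highest for ITGB4 and OCLN. Of the defining markers, CDH1, epithelial cadherin, read 1662, 1581 and 1792 at E10, against 565, 712 and 594 at E5 (1.43 ± 0.17 log2, adjusted p = 0.000308), and EPCAM 3698, 3659 and 3834 at E10, against 2057, 2683 and 2251 at E5 (0.69 ± 0.19 log2, adjusted p = 0.0368), under 2-fold, while 1 of its 2 other probe sets was called higher. GRHL2 had no probe set with 1 symbol. ELF3, an epithelial transcription factor, rose by 1.48 ± 0.27. KRT7, a keratin of simple epithelium, overlapped between the stages, with 4618, 5156 and 4177 at E10 and 3496, 5972 and 3398 at E5. With E5 replicate 3 as the sole E5 array, 5 of the 25 genes rose, as did 3 with the floor of 20.

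Ion, acid and calcium transport genes rose in 8 and fell in 4 of 33 cases (median 0.05). Sodium uptake genes were among the rises. SCNN1B, the beta subunit of the epithelial sodium channel, read 475, 208 and 573 in the E10 CAMs, against 25.1, 68.1 and 40.9 in the E5 CAMs (3.22 ± 0.40 log2, adjusted p = 0.000382). The gamma subunit gene SCNN1G read 132, 81.8 and 197 at E10, against 19.6, 51.8 and 34.2 at E5 (1.98 ± 0.40 log2, adjusted p = 0.00677), with 2 of 3 probe sets called. SCNN1A, the alpha subunit, overlapped between the stages, with 156, 128 and 101 at E10 and 130.3, 144 and 183 at E5 (log2 fold change -0.25 ± 0.23, adjusted p = 0.559). The 3 subunits of this channel thus had unequal changes on the same arrays. ATP1B1, a subunit of the sodium pump, read 1867, 1669 and 1720.5 at E10, against 642, 819 and 616 at E5 (1.35 ± 0.18 log2, adjusted p = 0.000562). SLC12A1, the sodium-potassium-chloride cotransporter best known from the kidney, read 483, 534 and 364 at E10, against 120.2, 35.7 and 36.7 at E5 (3.07 ± 0.39 log2, adjusted p = 0.000428), with 3 of 5 probe sets called.

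Acid and calcium transport held both rises and falls. ATP12A, a proton-potassium pump, read 1031, 634 and 853 in the E10 CAMs, against 189, 107 and 199.6 in the E5 CAMs (2.37 ± 0.26 log2, adjusted p = 0.000167), with 3 of 4 probe sets called. CA2, the cytosolic carbonic anhydrase of red cells and acid-secreting cells, read 249.6, 270.2 and 1750.4 at E10, against 107, 88.8 and 113 at E5 (2.26 ± 0.56 log2, adjusted p = 0.0199). E10 replicate 3 was over 6-fold above the other 2 E10 arrays of CA2. FOXI1, the transcription factor of proton-secreting cells, fell, with 129.6, 161 and 141 at E10, against 212, 554 and 396 at E5 (-1.33 ± 0.29 log2, adjusted p = 0.0108). ATP2B1, a calcium pump of the plasma membrane, read 132, 119 and 110.4 at E10, against 335, 341 and 317 at E5 (-1.46 ± 0.18 log2, adjusted p = 0.000314), with both probe sets called. CA9, a membrane carbonic anhydrase that hypoxia induces, read 55.02, 27.1 and 68.9 at E10, against 137, 145 and 158 at E5 (-1.64 ± 0.32 log2, adjusted p = 0.00587), and the proton pump subunit ATP6V1G3 fell by 1.16 ± 0.24. TRPV6, an entry channel of calcium, read 45.1, 34.98 and 42.4 at E10, against 105, 69.8 and 24.99 at E5, and CALB1, a calcium buffer, 9.601, 20.2 and 7.198 at E10, against 12.5, 18.3 and 19.95 at E5, with overlap in both genes. Calls did not hold for CA2 without E5 replicate 1 or 2 (adjusted p 0.0536 to 0.0798) and ATP6V1G3 without E10 replicate 1 (log2 fold change -0.96). In the comparison with E5 replicate 3 alone, 6 of the 33 genes rose and 2 fell, and 5 rose and 1 fell with the floor of 20.

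Basement membranes are sheets of laminin and type IV collagen under epithelia and around vessels. Of 25 genes 9 rose (36%) and 3 fell (12%), and the type IV collagens moved in opposite directions. COL4A1 read 1027, 949 and 1401 in the E10 CAMs, against 173, 196 and 393 in the E5 CAMs (2.23 ± 0.28 log2, adjusted p = 0.000412), and COL4A2 read 2536, 2094 and 2805 at E10, against 449, 738 and 993 at E5 (1.83 ± 0.26 log2, adjusted p = 0.00092). These are the chains of the common type IV trimer, and 2 of 3 and 5 of 6 of their probe sets were called, the 5 of COL4A2 all higher. The other probe set of COL4A2 had a log2 fold change under 0 and overlapping stages and was not called, with 1.71, 6.45 and 7.35 at E10, against 1.38, 96.4 and 114 at E5 (-2.51 ± 1.42 log2, adjusted p = 0.313). COL4A5 fell, with 145, 123 and 164 at E10, against 809, 925 and 1141 at E5 (-2.73 ± 0.19 log2, adjusted p = 1.1e-05), and 3 of its 4 probe sets were called. COL4A6 read 42.2, 35.9 and 70.98 at E10, against 147, 251 and 255 at E5 (-2.15 ± 0.31 log2, adjusted p = 0.000915). COL4A3 and COL4A4 were not called, with log2 fold changes of -0.19 ± 0.59 and 0.25 ± 0.67.

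LAMB2, a laminin beta chain, read 107, 53.9 and 135 in the E10 CAMs, against 2.72, 7.76 and 5.02 in the E5 CAMs (4.28 ± 0.57 log2, adjusted p = 0.000609), with 1 of 2 probe sets called, and with the floor of 20 the call was lost (log2 fold change 2.20, adjusted p = 0.0535). LAMA4, the laminin alpha chain of blood vessels, rose by 2.11 ± 0.36 in 1 of 2 probe sets, and LAMC1, the gamma chain of most laminins, was not called (log2 fold change -0.04 ± 0.20, adjusted p = 0.938). DAG1, dystroglycan, the laminin receptor, read 978, 929 and 1079 at E10, against 85.8, 151 and 119.7 at E5 (3.10 ± 0.21 log2, adjusted p = 9.0e-06), with 3 of 4 probe sets called. HSPG2, the proteoglycan perlecan, read 468, 312 and 754 at E10, against 101, 129 and 124 at E5 (2.03 ± 0.28 log2, adjusted p = 0.000649), with 3 of 4 probe sets called. For all of these but LAMC1 the E10 arrays lay clear of the E5 arrays. FREM1, a protein of embryonic epithelial basement membranes, fell by 1.52 ± 0.34 in 1 of 5 probe sets, a call that was lost without E5 replicate 1 (adjusted p 0.0659). Without E10 replicate 3 the list had 5 falls. When E5 replicate 3 stood for E5, 6 genes rose and 2 fell.

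The interstitial and elastic matrix had 14 rises and 1 fall in 45 genes (median 0.74). MGP, the matrix Gla protein that inhibits calcification, read 4385, 5245 and 4925 in the E10 CAMs, against 537, 508 and 379.5 in the E5 CAMs (3.37 ± 0.19 log2, adjusted p = 3.2e-06). CCN3, a matricellular protein of vessels, read 913, 334 and 857 at E10, against 54.98, 31.5 and 39.99 at E5 (3.96 ± 0.35 log2, adjusted p = 4.6e-05), with 1 of 2 probe sets called. MFAP5, a microfibril protein, read 439.8, 319.7 and 337 at E10, against 39.8, 16.6 and 38.7 at E5 (3.62 ± 0.32 log2, adjusted p = 5.0e-05). EFEMP1, a fibulin, read 232, 116 and 288 at E10, against 25.6, 38.3 and 15.3 at E5 (3.000 ± 0.39 log2, adjusted p = 0.000553). No array of one stage reached the range of the other in these 4 genes. The 5 genes of the fibrillar collagens, COL1A1, COL1A2, COL3A1, COL5A1 and COL5A2, had signals of 358 to 6064 and none was called by limma, with log2 fold changes of 0.56 to 0.86. All 5 had an unadjusted p under 0.05 and 2 an adjusted p under 0.05. SAM, a permutation test, was held to the same 2-fold limit and so could call none of them. SPON1, a secreted guidance protein, fell, with 99.1, 82.7 and 70.6 at E10, against 339, 151 and 253 at E5 (-1.49 ± 0.28 log2, adjusted p = 0.00476). With the floor of 20 the list had 7 rises and 0 falls, and against E5 replicate 3 alone 9 rises and 1 fall. Without E10 replicate 3 there were 2 falls.

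Adhesion and guidance genes rose in 11 and fell in 2 of 47 cases (median 0.13). Integrin alpha chains, which pair with a beta chain to bind matrix, were among the rises. ITGA1, a collagen receptor, read 246, 334 and 612 in the E10 CAMs, against 69.6, 63.03 and 83.8 in the E5 CAMs (2.36 ± 0.29 log2, adjusted p = 0.000375). ITGA7, a laminin receptor of muscle, read 187, 119 and 291 at E10, against 15.7, 44.6 and 17.9 at E5 (3.002 ± 0.42 log2, adjusted p = 0.000839), and ITGA6, a laminin receptor of epithelium and endothelium, 815, 520.2 and 926 at E10, against 143, 149 and 162 at E5 (2.27 ± 0.22 log2, adjusted p = 7.6e-05). ITGB1, their partner chain, overlapped between the stages (1856, 1722 and 1846 at E10, 1395, 1476 and 1895 at E5, adjusted p = 0.576). CDH8, a cadherin known from neurons, rose by 3.15 ± 0.34 in 1 of 4 probe sets, which can bind several transcripts. NELL2, a secreted glycoprotein known from neurons, read 862, 875 and 595 at E10, against 90.5, 128 and 151 at E5 (2.67 ± 0.23 log2, adjusted p = 3.7e-05). UNC5B, a netrin receptor of arterial and capillary endothelium, read 655, 577 and 796 at E10, against 179, 159 and 138 at E5 (2.09 ± 0.19 log2, adjusted p = 5.1e-05). VCAM1, a ligand for the integrins of white cells and of early mesenchyme, fell, with 149, 212 and 119.7 at E10, against 719.6, 593 and 677 at E5 (-2.09 ± 0.22 log2, adjusted p = 0.000127), in 1 of its 2 probe sets. SEMA3E, a semaphorin that repels endothelial cells, fell by 1.68 ± 0.49 at signals under 50, a call that had log2 fold change -1.02 with the floor of 20 and was lost without E10 replicate 1 or 3 or E5 replicate 1, 2 or 3 (adjusted p 0.086 to 0.154), which left 1 fall in the list. Against E5 replicate 3 alone, 9 of the 47 genes rose and 1 fell.

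Wnt, hedgehog and Notch signals pattern epithelium, mesenchyme and vessels. Of 52 genes 10 rose and 6 fell, with Wnt ligands on both sides. WNT4 read 165, 109 and 74.8 in the E10 CAMs, against 16.6, 7.33 and 18.3 in the E5 CAMs (3.08 ± 0.44 log2, adjusted p = 0.000997), WNT2B 217, 170.5 and 240.3 at E10, against 20.7, 57.1 and 45.7 at E5 (2.45 ± 0.34 log2, adjusted p = 0.000816), and WNT6 rose by 2.17 ± 0.29. WNT5A, a ligand of the non-canonical branch, fell, with 171, 69.7 and 181 at E10, against 426, 339 and 625 at E5 (-1.79 ± 0.34 log2, adjusted p = 0.00489) and 3 of 4 probe sets called. Secreted inhibitors also went both ways. WIF1 read 493, 946 and 295 at E10, against 75.99, 68.9 and 133 at E5 (2.54 ± 0.37 log2, adjusted p = 0.001), and SFRP1 104, 111 and 118 at E10, against 379, 338 and 422 at E5 (-1.77 ± 0.18 log2, adjusted p = 0.000112) in 2 of 4 probe sets. RSPO3, which strengthens Wnt signalling, read 0.896, 2.14 and 8.64 at E10, against 64.9, 53.2 and 49.4 at E5 (-4.44 ± 0.83 log2, adjusted p = 0.00466), with 1 of 3 probe sets called. The E10 signals of RSPO3 were all under 10, and with the floor of 20 its log2 fold change was -1.47 and that of WNT4 2.46.

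Among the 11 hedgehog genes 3 fell and 0 rose. HHIP, a membrane decoy and target gene of the pathway, read 124, 68.2 and 146 in the E10 CAMs, against 452, 693 and 516 in the E5 CAMs (-2.34 ± 0.27 log2, adjusted p = 0.000265), with both probe sets called. CDON, a co-receptor, read 45.99, 57.5 and 24.7 at E10, against 197, 125 and 191 at E5 (-2.06 ± 0.33 log2, adjusted p = 0.00179), with 2 of 7 probe sets called. PTCH1, the receptor and a target gene, fell by 1.05 ± 0.24 in 1 of 2 probe sets. Against E5 replicate 3 alone the log2 fold change was -2.24 for CDON and -0.94, under 2-fold, for PTCH1. SHH, the ligand, read 20.2, 11.1 and 6.71 at E10, against 25.7, 20.1 and 30.8 at E5, and GLI1, a target, stayed under 10 on all 6 arrays. HEY1, a target of Notch in endothelium, read 439.6, 329 and 709 at E10, against 94.7, 93.2 and 78.9 at E5 (2.40 ± 0.26 log2, adjusted p = 0.000152). NOTCH1 had log2 fold change 0.76 ± 0.24 (adjusted p = 0.0627) and DLL4 0.56 ± 0.43 (adjusted p = 0.488), neither called. WNT7A rose by 2.92 ± 0.73 at signals under 50, and with the floor of 20 it was not called (log2 fold change 0.72). Calls ended for PTCH1 without E10 replicate 2 or 3 or E5 replicate 1 (adjusted p 0.0504 to 0.0564, log2 fold change -0.998) and WNT7A without E10 replicate 1 or 2 (adjusted p 0.0972 to 0.101). With the floor of 20 there were 4 rises and 3 falls, and against E5 replicate 3 alone 5 rises and 3 falls.

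In the BMP and TGF-beta pathways 8 of 41 genes rose and 1 fell (median 0.24). Among the ligands, TGFB1 read 153, 134 and 174 in the E10 CAMs, against 18.1, 18.8 and 55.2 in the E5 CAMs (2.52 ± 0.39 log2, adjusted p = 0.00162). BMP4 read 101, 129.7 and 114 at E10, against 39.9, 24.95 and 24.6 at E5 (1.98 ± 0.29 log2, adjusted p = 0.00119), with 1 of 3 probe sets called, and BMP5 was the fall, with 25.2, 27.2 and 46.4 at E10, against 132, 146 and 159 at E5 (-2.20 ± 0.29 log2, adjusted p = 0.000562), also in 1 of 3. Among nuclear targets of BMP, MSX1 read 1210.3, 1210.5 and 987 at E10, against 119, 216 and 214 at E5 (2.68 ± 0.23 log2, adjusted p = 4.1e-05), and ID3 2887, 1783 and 1544 at E10, against 519.9, 687 and 523 at E5 (1.80 ± 0.24 log2, adjusted p = 0.000537). ID1 and ID2, of the same family as ID3, had log2 fold changes of 0.25 ± 0.18 and -0.34 ± 0.41 and were not called. Among transducers, SMAD3 rose by 1.54 ± 0.19 in 1 of 2 probe sets. With E5 replicate 3 as the sole E5 array, 6 genes rose and 1 fell, and 5 rose and 1 fell with the floor of 20.

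HOX genes encode the transcription factors of position along the body axis, and each cluster runs from low-numbered anterior to high-numbered posterior genes. Of 58 HOX and other patterning genes 7 rose (12.1%) and 11 fell (19%). The array read 27 HOX genes. Split by number after the values were seen, 4 of 17 with numbers 1 to 8 rose and 0 fell, whereas 0 of 10 with numbers 9 to 13 rose and 5 fell. Against E5 replicate 3 alone, 1 of the 17 rose (HOXA3) and 1 of the 10 fell (HOXA11), and with the floor of 20 it was 1 rise and 4 falls. HOXA3 read 284, 396 and 265 in the E10 CAMs, against 92.4, 61.3 and 88.8 in the E5 CAMs (1.96 ± 0.23 log2, adjusted p = 0.000286), and HOXA7 357, 306 and 261 at E10, against 108, 97.96 and 186 at E5 (1.29 ± 0.25 log2, adjusted p = 0.00552). Of their probe sets, 1 of 2 and 2 of 4 were called. HOXA11, further along the same cluster, fell, with 179, 132 and 188 at E10, against 438, 332 and 443 at E5 (-1.29 ± 0.20 log2, adjusted p = 0.00166), and 2 of 5 probe sets called.

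HOXD11 read 14.9, 9.36 and 26.6 in the E10 CAMs, against 132, 147 and 130 in the E5 CAMs (-3.13 ± 0.38 log2, adjusted p = 0.000349). HOXD12 read 1.12, 1.22 and 1.03 at E10, against 22.2, 21.6 and 26.6 at E5 (-4.38 ± 0.83 log2, adjusted p = 0.00482), and HOXD13 1.07, 13.5 and 13.3 at E10, against 65.3, 67.0 and 82.2 at E5 (-3.62 ± 0.84 log2, adjusted p = 0.0148). E10 signals of these 3 neighbours were all under 30, and the HOXD12 signals were low at E5 as well. HOXD12 was not called with the floor of 20 (log2 fold change -0.22, adjusted p = 0.257), and HOXD13 had log2 fold change -1.83. None of the 9 HOXB genes was called by limma, but 1 had an adjusted p under 0.05 at a change too small for a call. SAM also called none of the 9, but it gave only 90 rises and 8 falls over all probe sets. It called 0 of the 43 mitosis genes as well, so over all probe sets it cannot decide here. Among 18000 probe sets kept by a filter on signal, SAM called 16 of the 43 mitosis genes. Only 3 of the 9 HOXB genes passed that filter, and SAM called 0 of these. Among the other patterning factors, FOXD1, a forkhead factor of stromal mesenchyme, read 1.94, 4.59 and 2.28 at E10, against 49.1, 28.8 and 33.4 at E5 (-3.73 ± 0.72 log2, adjusted p = 0.00564), HAND2, a factor of heart and limb mesenchyme, 90.03, 124 and 113 at E10, against 266, 403 and 274 at E5 (-1.52 ± 0.22 log2, adjusted p = 0.000998), and SNAI1, a repressor of epithelial genes, 189, 243 and 247 at E10, against 544, 636 and 846 at E5 (-1.56 ± 0.20 log2, adjusted p = 0.000509). HOXA2, in 1 of 2 probe sets, and FOXC1 rose by 4.09 ± 1.02 and 2.69 ± 0.80 at signals under 40, HOXA4 rose by 1.05 ± 0.31, and HOXC9 fell by 2.10 ± 0.38. With the floor of 20, FOXD1 (-0.85 log2), HOXA2 (0.66 log2) and FOXC1 (0.53 log2) were not called. Calls were lost for HOXA2 without E10 replicate 1, 2 or 3 or E5 replicate 1 or 2 (adjusted p 0.0606 to 0.0751), FOXC1 without E10 replicate 1, 2 or 3 or E5 replicate 1 or 2 (adjusted p 0.0785 to 0.155), HOXA4 without E10 replicate 1, 2 or 3 or E5 replicate 2 or 3 (adjusted p 0.0959 to 0.14) and HOXD13 without E5 replicate 1, 2 or 3 (adjusted p 0.0521 to 0.0586). The list had 2 rises without E10 replicate 2, 3 without E10 replicate 1 or E5 replicate 1 and 4 without E5 replicate 2, against 7 with all arrays. With the floor of 20 the list had 2 rises and 8 falls. In the comparison with E5 replicate 3 alone, there were 2 rises and 2 falls.

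**Figure D4:**
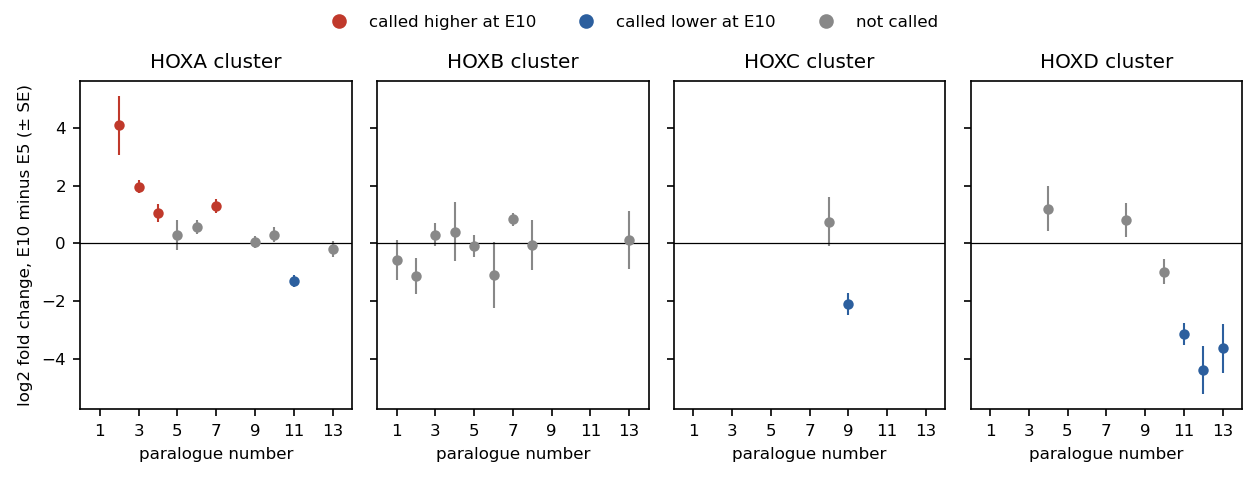
Log2 fold change, E10 minus E5, with its SE (y axis) for 27 HOX genes by paralogue number (x axis) in the 4 clusters, where red points were called higher at E10, blue lower and grey not called. HOXA2, HOXA3, HOXA4 and HOXA7 lie above 0 and HOXA11, HOXC9, HOXD11, HOXD12 and HOXD13 below it, while the 9 HOXB genes scatter about 0.

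All 43 mitosis genes had a log2 fold change under 0, from -2.26 to -0.35 (median -0.89), 16 fell (37.2%) and none rose, and 31 had an adjusted p under 0.05 at any fold. Their summed signal was 18039.5 to 20363 at E10 and 33531 to 39601 at E5. CENPE, a kinetochore motor, read 61.04, 39.6 and 68.3 in the E10 CAMs, against 314, 253 and 230.1 in the E5 CAMs (-2.26 ± 0.25 log2, adjusted p = 0.000177), with both probe sets called. TTK, the spindle checkpoint kinase, read 102, 128 and 118 at E10, against 474, 552 and 388 at E5 (-2.01 ± 0.19 log2, adjusted p = 8.0e-05), with all 3 probe sets called. KIF20A, a motor of cytokinesis, read 293, 199 and 195 at E10, against 689.8, 755 and 996 at E5 (-1.84 ± 0.21 log2, adjusted p = 0.000239) in 1 of 2 probe sets, and AURKB, the kinase of the chromosomal passenger complex, 647, 728 and 435 at E10, against 2152, 2017 and 1689 at E5 (-1.72 ± 0.21 log2, adjusted p = 0.000386). Their E10 arrays lay below every E5 array.

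Of 41 DNA replication genes 13 fell and 1 rose (median -0.72). ORC1, of the origin recognition complex, read 80.2, 60.6 and 33.4 in the E10 CAMs, against 139.5, 193 and 169 in the E5 CAMs (-1.60 ± 0.31 log2, adjusted p = 0.00537). TYMS, thymidylate synthase, read 519, 673 and 408 at E10, against 1611, 1482 and 1299 at E5 (-1.48 ± 0.20 log2, adjusted p = 0.000745), and CDC45, of the replicative helicase, 375, 380.2 and 332 at E10, against 1021, 879.9 and 949 at E5 (-1.39 ± 0.16 log2, adjusted p = 0.000272). RPA3, of the complex that coats single-stranded DNA, fell by 1.47 ± 0.24. The rise was E2F1, a transcription factor of entry into S phase, with 476, 466 and 469.6 at E10, against 248, 234 and 205 at E5 (1.04 ± 0.17 log2, adjusted p = 0.00176), a call that was lost without E5 replicate 3 (log2 fold change 0.97). When E5 replicate 3 stood for E5, 6 mitosis genes and 3 replication genes fell, with list medians of -0.88 and -0.76.

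Genes of endoderm and of plasma proteins fell in 7 and rose in 1 of 29 cases, and 11 of the 29 had means under 20 at both stages. After TTR and VTN, GATA4, a transcription factor of endoderm and heart, read 3.75, 15.2 and 3.27 in the E10 CAMs, against 52.95, 53.1 and 51.3 in the E5 CAMs (-3.20 ± 0.66 log2, adjusted p = 0.00744). GATA5, its relative, was bright, with 849, 741 and 751 at E10, against 2256, 2398 and 2276 at E5 (-1.57 ± 0.17 log2, adjusted p = 0.000153), and both probe sets were called. TF, the iron carrier of plasma and egg white, read 600, 551 and 362 at E10, against 1562, 1906 and 1651 at E5 (-1.79 ± 0.21 log2, adjusted p = 0.000272), with 2 of 4 probe sets called. HPX, the haem-binding plasma protein hemopexin, was the rise, with 117, 298 and 121 at E10, against 10.5, 16.6 and 10.01 at E5 (3.75 ± 0.41 log2, adjusted p = 0.000179). APOH, a plasma apolipoprotein, fell by 3.30 ± 0.88 at signals under 80, a call that was lost without E10 replicate 1 or 3 or E5 replicate 1, 2 or 3 (adjusted p 0.067 to 0.13). The floor of 20 gave log2 fold changes of -1.39 for GATA4, 3.01 for HPX and -1.11 for APOH, the last not called. Against E5 replicate 3 alone, 3 genes fell and 1 rose.

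White cell genes rose in 6 and fell in 1 of 18 cases (median 0.94). CTSS, a lysosomal protease of antigen-presenting cells, read 239.9, 271 and 236 in the E10 CAMs, against 40.9, 72.4 and 67.8 in the E5 CAMs (2.09 ± 0.25 log2, adjusted p = 0.00028). CD74, the invariant chain of class II MHC, read 220.2, 356 and 318 at E10, against 52.8, 82.4 and 86.2 at E5 (2.02 ± 0.25 log2, adjusted p = 0.000412), with all 3 probe sets called, and LCP1, the actin bundler of white cells, 209.5, 224 and 157 at E10, against 51.4, 56.4 and 66.4 at E5 (1.75 ± 0.23 log2, adjusted p = 0.00051). The defining markers were not called in their brightest probe sets. PTPRC, the pan-leukocyte phosphatase CD45, read 48.02, 31.4 and 24.8 at E10 and 17.4, 3.08 and 18.3 at E5, SPI1 55.9, 70.6 and 38.8 at E10 and 29.2, 39.4 and 25.1 at E5, and CSF1R, the macrophage receptor, 109.5, 169 and 143 at E10 and 78.2, 88.3 and 88.1 at E5. For CSF1R 2 of the 3 other probe sets were called higher. The fall was CD44, a hyaluronan receptor of many cell types, with 26.02, 59.7 and 34.8 at E10, against 133, 64.8 and 87.4 at E5 (log2 fold change -1.27 ± 0.37) in 1 of 4 probe sets, a call that was lost without E10 replicate 1 or 3 or E5 replicate 1 or 3 (adjusted p 0.0973 to 0.181). With E5 replicate 3 as the sole E5 array, 5 of the 18 genes rose.

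Of 22 MHC and interferon response genes 7 rose and none fell. TAPBP, which loads peptides on class I MHC, read 312, 226 and 260.5 in the E10 CAMs, against 16.98, 41.8 and 42.2 in the E5 CAMs (3.09 ± 0.34 log2, adjusted p = 0.000173), and BLB1, a class II beta chain, 129.6, 144 and 176 at E10, against 33.96, 54.5 and 35.8 at E5 (1.88 ± 0.27 log2, adjusted p = 0.00092) in 2 of 5 probe sets. SOCS3, a brake on cytokine signals, and IRF1, an interferon regulatory factor, rose by 2.36 ± 0.56 and 2.15 ± 0.62 at signals under 80, against 1.62 and 1.26 with the floor of 20, at which IRF1 was not called. The interferon-induced genes MX1, IFIT5 and RSAD2 stayed under 30 on all 6 arrays. Calls did not hold for SOCS3 without E10 replicate 1, 2 or 3 (adjusted p 0.0538 to 0.0598) and IRF1 without E10 replicate 1, 2 or 3 or E5 replicate 1 or 3 (adjusted p 0.0541 to 0.169). Without E10 replicate 2 or 3 the list had 4 rises, as it had against E5 replicate 3 alone. Thrombocytes, the nucleated platelets of birds, gave 0 rises and 0 falls in 6 genes by limma, with 2 genes at an unadjusted p under 0.05. There was 1 call by SAM among 18000 probe sets kept by a filter on signal, and 1 rise without E10 replicate 3 or E5 replicate 2. Against E5 replicate 3 alone 1 gene rose, TUBB1, a beta-tubulin of thrombocytes, with 563, 676 and 808 at E10, against 396, 515 and 279 at E5 (1.28 log2, adjusted p = 0.0445). With all arrays its log2 fold change was 0.81 ± 0.23, under 2-fold. ITGB3, a defining marker and fibrinogen receptor chain that other cells also make, read 301, 168 and 339.8 at E10 and 160.5, 138 and 291 at E5. ITGA2B had no probe set with 1 symbol.

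Among 13 neuronal genes 4 rose and 1 fell. After TUBB3 and STMN2 came SNAP25, of the synaptic release machinery, with 52.8, 56.9 and 67.5 in the E10 CAMs, against 5.95, 6.98 and 6.47 in the E5 CAMs (3.19 ± 0.49 log2, adjusted p = 0.00137) in 2 of 7 probe sets, and 1.55 log2 with the floor of 20. NEFL, the light neurofilament, read 129, 183 and 142 at E10, against 48.1, 60.1 and 53.6 at E5 (1.48 ± 0.23 log2, adjusted p = 0.00176). UCHL1, a ubiquitin hydrolase of neurons and other cells, fell, with 515, 853 and 303 at E10, against 1288, 1950.1 and 1510 at E5 (-1.61 ± 0.31 log2, adjusted p = 0.00539), in 1 of 3 probe sets. Other markers were near the bottom of the scale at both stages, such as ELAVL4, with 15.9, 9.07 and 5.37 at E10 and 25.7, 5.02 and 5.67 at E5, and GAP43, with 8.03, 1.08 and 18.5 at E10 and 2.56, 19.9 and 12.4 at E5. In the comparison with E5 replicate 3 alone, 4 of the 13 genes rose and 0 fell.

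Immediate-early genes, which respond within minutes to stimuli and to handling of tissue, rose in 6 and fell in 1 of 19 cases (median 0.74). Of the 19 genes 5 had means under 20 at both stages. With the floor of 20 the list had 5 rises, 0 falls and a median of 0.03. KLF2, a transcription factor that blood flow induces in endothelium, read 527, 683 and 955 in the E10 CAMs, against 132, 113 and 243 in the E5 CAMs (2.19 ± 0.29 log2, adjusted p = 0.000558). DUSP5, a phosphatase of ERK, read 413, 414 and 329 at E10, against 101, 96.5 and 72.9 at E5 (2.10 ± 0.20 log2, adjusted p = 8.0e-05), and SGK1, a kinase that regulates sodium transport, 988, 1088 and 1365 at E10, against 427, 301 and 362 at E5 (1.66 ± 0.19 log2, adjusted p = 0.000265). BTG2, a growth suppressor, rose by 1.51 ± 0.19 with 2 of 3 probe sets called. The fall was DUSP4, another ERK phosphatase, with 61.1, 41.9 and 74.4 at E10, against 86.5, 117 and 180.3 at E5 (log2 fold change -1.08 ± 0.31) in 1 of 3 probe sets, a call that was lost without E10 replicate 1 or 2 or E5 replicate 2 or 3 (adjusted p 0.0908 to 0.174). When E5 replicate 3 stood for E5, 6 of the 19 genes rose. Of 29 chaperone genes 2 rose and 2 fell, 6.9% each way, the share of rises being near the background. HSPA2 read 2536, 2662 and 1881 at E10, against 509, 653 and 787 at E5 (1.87 ± 0.21 log2, adjusted p = 0.000222), and CALR, the calcium-binding chaperone calreticulin, 1614, 1352 and 1528 at E10, against 395, 495 and 637 at E5 (1.58 ± 0.20 log2, adjusted p = 0.000413). HSP90AB1 fell, with 710.3, 791 and 592 at E10, against 1459, 2116 and 1791 at E5 (-1.35 ± 0.20 log2, adjusted p = 0.00101). Without E10 replicate 3 or E5 replicate 2 the list had 1 fall, as it had with the floor of 20, and against E5 replicate 3 alone it had 2 rises and 2 falls.

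None of 60 ribosomal protein genes was called or had an unadjusted limma p under 0.05. Their log2 fold changes were -0.56 to 0.37 (median 0.17), and the median was 0.48 against E5 replicate 3 alone. Their summed signal was 255348 to 320070 at E10 and 201311 to 348393 at E5, which overlap. Of 50 oxidative phosphorylation genes 4 fell and none rose (median -0.33). NDUFA10, a subunit of complex I, read 628, 601 and 371 in the E10 CAMs, against 1391, 1375 and 1197 in the E5 CAMs (-1.34 ± 0.21 log2, adjusted p = 0.00178) in 1 of 2 probe sets. The list had 1 fall without E10 replicate 3 or E5 replicate 1 and 2 falls without E5 replicate 2, and against E5 replicate 3 alone none. Of 32 hypoxia and glycolysis genes 4 rose (12.5%) and 2 fell (6.25%). PDK4, the kinase that holds back pyruvate oxidation, read 249.8, 281 and 337 at E10, against 29.8, 5.24 and 37.5 at E5 (3.99 ± 0.57 log2, adjusted p = 0.000932), and 3.35 log2 with the floor of 20. PFKL, liver-type phosphofructokinase, rose by 1.04 ± 0.20, and P4HA2, a prolyl hydroxylase of collagen, fell by 1.58 ± 0.31 in 1 of 2 probe sets. LDHA and GAPDH had log2 fold changes of 0.27 ± 0.27 and 0.11 ± 0.24, not called. The call was lost for PFKL without E10 replicate 1 or E5 replicate 3 (log2 fold change 0.91 to 0.98). ADM also rose, but its call was lost without E10 replicate 1, 2 or 3 or E5 replicate 1 or 2 (adjusted p 0.0518 to 0.134). Against E5 replicate 3 alone the log2 fold change of ADM was 0.25. The list had 2 rises without E10 replicate 1, and 1 against E5 replicate 3 alone.

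Summed marker signals of endothelial, lymphatic endothelial, mural, epithelial, leukocyte and thrombocyte genes lay higher on every E10 array than on every E5 array. A few bright genes can set such a sum. The 11 lymphatic endothelial genes summed to 2273 to 2834 at E10 and 932 to 1267 at E5. For the 6 thrombocyte genes the sum was 1563 to 2024 at E10 and 932 to 1145 at E5, though none of them was called. Their median log2 fold change was 0.52 with all arrays and -0.13 against E5 replicate 3 alone. The summed signal of the 12 mural genes was 4965 to 6416 at E10 and 1873 to 2878 at E5. For the 25 epithelial genes it was 19411 to 21146 at E10 and 10662 to 15312 at E5, and for the 18 leukocyte genes 2150 to 2347 at E10 and 878 to 1105 at E5. The 13 neuronal genes summed to 2157 to 2422 at E10 and 1496 to 2191 at E5, which overlap. The part of such shifts in the change of any other gene was not tested.

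At the other stages these genes were read as levels. RHAG had mean signals of 3.56 ± 3.51 at E5, 144 ± 77.2 at E7, 819 ± 60.3 at E10 and 988 ± 246 at E14 (SD, n = 3 CAMs each). VWF and MGP had most of their difference by E7, with 808 ± 85.4 and 4032 ± 1028 at E7, against 177 ± 47.9 and 475 ± 83.7 at E5. SCNN1B and KRT14 were still low at E7 (75.3 ± 22.1 and 545 ± 254) and were highest at E14 (857 ± 285 and 5068 ± 431). DAG1 had its highest mean at E10, with 996 ± 76.2, and 404 ± 70.1 at E14. CA2, uneven among the E10 arrays, read 4453 ± 637 at E14. AURKB was lower at each stage in turn, with 1952 ± 238 at E5, 1187 ± 235 at E7, 603 ± 152 at E10 and 237 ± 7.11 at E14. HBZ was highest at E7, with 8245 ± 2882, and lowest at E14, with 454 ± 333. TTR read 1368 ± 757 at E5, 127 ± 113 at E7, 35.02 ± 5.41 at E10 and 82.9 ± 60.8 at E14.

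**Figure D5:**
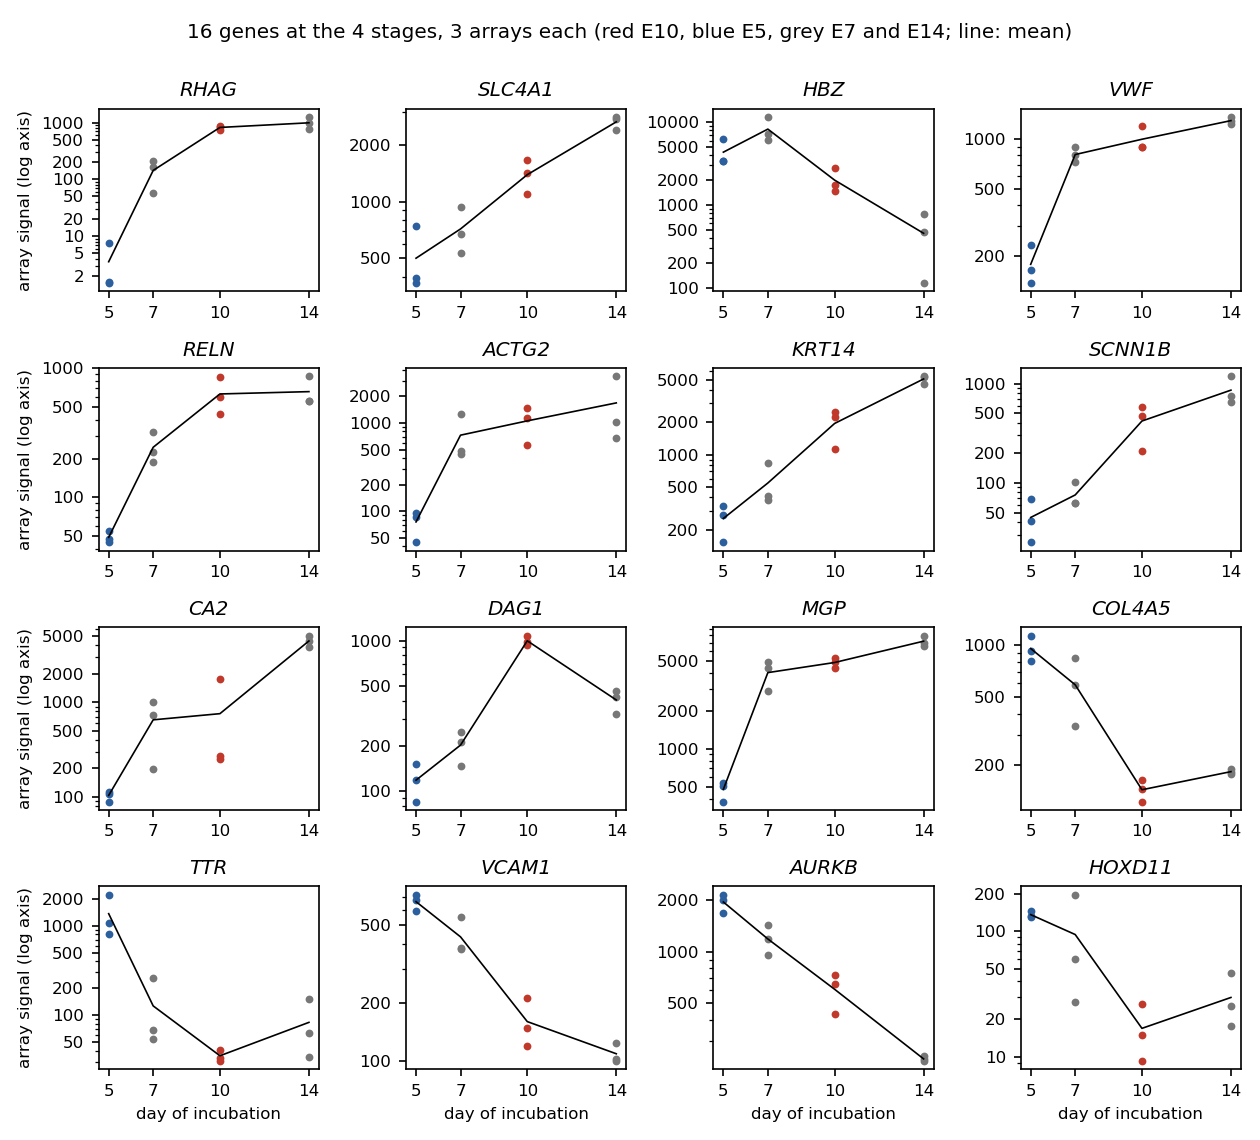
Signals of 16 genes on each array (log y axes) against the day of incubation (x axis), with red points for E10, blue for E5 and grey for E7 and E14; lines join the means of 3 CAMs. VWF and MGP are near their E10 level at E7, DAG1 is highest at E10, CA2 at E14, and TTR has left its E5 level by E7.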

How the data were processed

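Total RNA of CAMs, each of 1 embryo, was hybridised to the Affymetrix chicken GeneChip. Each deposited intensity is a signal that the authors computed with GCOS (version 1.2, per the submitters' processing notes) and scaled globally to a common trimmed mean for each array. Detection calls were not used here, and a genome build is not given in the sources used here. Of 38535 probe sets, 96 controls were left out, and the other 38439 were tested with no filter on signal. The platform annotation gave 1 gene symbol to 27168 probe sets, several to 177 and none to 11094, and only those with 1 symbol were named.

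The log2 signals of the 3 E10 and the 3 E5 arrays were compared with limma 3.58.1 in R 4.3.3 (eBayes with an intensity trend), in a script tested on simulated data. The study's methods name SAM after a filter on detection calls. SAM was run as an alternative, since 3 against 3 arrays give it 20 groupings. SE and p-values rest on the spread between these CAMs, drawn by eBayes toward the spread of probe sets of like signal. They are thus not the spread of each gene alone. The number of CAMs limits the precision, and the SE of a log2 difference had a median of 0.525.

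Genes were named by a rule: the 12 largest called changes per direction with 1 symbol, no overlap of the stages and a mean signal of at least 100 in the higher stage, then up to 4 called members per direction of each of 26 lists, and the defining markers of the cell types. Other genes in the text were chosen after their values were seen. Some called genes that met the rule, such as LOX, NDUFS4 and HSPH1, are counted in the lists but not described. In a list the brightest probe set over the 6 arrays stood for the gene. The comparison, the members and the lists were chosen with earlier results of these data known, so list counts are descriptions. Alternatives were a filter on signal, an offset of 16, a floor of 20, quantile normalization, equal medians, eBayes without trend, all 12 arrays in 1 model, no fold limit, SAM, a replicate block, HINTW as a covariate, E5 replicate 3 alone, and leaving out each array.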

Additional observations from a re-analysis of the deposited data

How the results depend on the processing

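The counts of 1952 rises and 1171 falls moved by over 1.5 times under these settings. With signals under 20 set to 20 they were 917 and 561, and with eBayes without trend 319 and 177. SAM on log2 signals gave 90 and 8. Its Wilcoxon form gave 0 and 0, in a design of 20 groupings. HINTW as a covariate gave 1088 and 549 on 12 arrays. Without a fold limit the falls were 2013. Among settings chosen after seeing the data, HINTW as a covariate on the 6 arrays gave 667 and 337, and the E10 arrays against E5 replicate 3 alone 810 and 265. In that last comparison the lone array was assumed to vary like the E10 arrays, and fewer arrays entered. The causes of the other differences were not tested. SAM and eBayes without trend on the 18000 brightest probe sets, also chosen after seeing the data, gave 2357 and 1307, and 1920 and 1146. Leaving out each array gave 1382 to 1882 rises and 881 to 1209 falls.

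The replicate number as a block gave 1973 rises and 1147 falls. Deviations of same-numbered arrays from their stage means correlated at -0.04, 0.00 and 0.05, so the numbers were not read as pairs. Of the 138 named probe sets, 118 to 129 stayed called with an array left out, 87 with the floor, 44 with eBayes without trend, 19 with SAM on all probe sets and 81 against E5 replicate 3 alone, and 0 changed direction under any setting run. Limits remain. Of the called probe sets 970 had a mean signal under 100 at both stages, where fold changes are least certain. Sex cannot be told apart from stage for E5 replicates 1 and 2, and some genes have probe sets that differ in their call. Among the largest changes, the probe sets of TUBB3, ABI3BP, GBP, SST1, CHODL and CXCL14 are of kinds that can bind several transcripts.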

Other observations

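Further gene groups, put together after their values were seen and so without a test of their own, add to the comparison of E10 with E5. Of 17 retinoid genes 6 rose and 1 fell, against 3 and 0 with E5 replicate 3 as the sole E5 array and 1 and 1 with signals under 20 set to 20. Of the enzymes that make retinoic acid, 1 was among the rises and 1 was the fall. ALDH1A3 read 206, 539.8 and 198 in the E10 CAMs, against 42.3, 26.4 and 56.04 in the E5 CAMs (2.82 ± 0.38 log2, adjusted p = 0.000681, limma), whereas ALDH1A2 read 59.6, 70.6 and 46.1 at E10, against 239, 219 and 177 at E5 (-1.86 ± 0.23 log2, adjusted p = 0.000419) in 2 of 3 probe sets. Both calls were lost against E5 replicate 3 alone (log2 fold change 2.32 and -1.61). That of ALDH1A3 was also lost with the floor (limma adjusted p = 0.0535). All its signals were over 20, so its log2 fold change stayed 2.82 and its p alone moved. DHRS3, which turns retinal back to retinol, rose by 2.55 ± 0.22 in 1 of 2 probe sets. Among the receptors RXRG rose by 3.45 ± 0.48 in 1 of 2 probe sets, with 129, 112 and 52.7 at E10, against 6.19, 8.001 and 11.6 at E5, and RARA by 2.02 ± 0.43. With the floor neither was called (2.19 and 1.78 log2). Of 8 genes in a vitamin D and steroid receptor group 3 rose and 0 fell. The vitamin D receptor gene VDR read 315, 177 and 296 at E10, against 38.4, 39.4 and 39.4 at E5 (2.71 ± 0.25 log2, adjusted p = 6.8e-05) in 1 of 2 probe sets. NR3C2, the mineralocorticoid receptor, which controls sodium channel genes in kidney epithelium, rose by 1.42 ± 0.23. Against E5 replicate 3 alone their log2 fold changes were 2.70 and 1.79. RXRA, the other rise, lost its call without E10 replicate 1 or 3. NR3C1, ESR1, PGR, FKBP5 and CYP24A1 were not called, with log2 fold changes of -0.30 to 0.53.

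Of 20 genes of coagulation and fibrinolysis 6 rose and 1 fell, against 5 and 0 with E5 replicate 3 alone. F3, tissue factor, which starts coagulation, read 1259.6, 1273 and 1302 in the E10 CAMs, against 213, 284 and 123 in the E5 CAMs (2.71 ± 0.26 log2, adjusted p = 7.0e-05). TFPI2, a protease inhibitor of the matrix, read 906, 961 and 1471 at E10, against 166, 125 and 170.1 at E5 (2.83 ± 0.22 log2, adjusted p = 1.9e-05), A2M, a broad protease inhibitor, rose by 2.63 ± 0.30 in 1 of 2 probe sets, and F10, the coagulation factor that cleaves prothrombin, by 2.18 ± 0.21. The stages did not overlap in any of these 4 genes. All 27 genes of ribosome biogenesis had log2 fold changes under 0, with 8 falls, no rises and a median of -0.77. Against E5 replicate 3 alone 4 of these falls stayed called, NPM3, UTP15, UTP18 and LYAR, and with the floor there were 4 falls. UTP15, of the complex that processes ribosomal RNA, read 96.7, 119 and 111 at E10, against 485, 538 and 354 at E5 (-2.06 ± 0.20 log2, adjusted p = 9.3e-05), and LYAR, a nucleolar protein, 115, 112 and 89.6 at E10, against 384, 439 and 441 at E5 (-2.001 ± 0.18 log2, adjusted p = 6.2e-05) in 1 of 2 probe sets. POLR1E, a subunit of RNA polymerase I, fell by 1.77 ± 0.35. It read 257, 256 and 177 at E10, against 1085, 1112 and 383 at E5. E5 replicate 3 thus stood apart from the other E5 arrays, and against that array alone POLR1E was not called (-0.76 log2). That array was also the lowest E5 array for UTP15, BRIX1 and RIOK2. Against it alone their log2 fold changes were -1.71, -0.95 and -0.81, compared with -2.06, -1.51 and -1.34 with all arrays. It was the highest E5 array for NPM3 and LYAR and lay between the others for NOP56 and UTP18.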
